A study of Mus musculus with 6 samples.

Results

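The genes described here are the 97 of 312 genes listed in the deposited table whose mean transcript level differed by less than 1.3-fold between mouse libraries of 2 ages, P6 (postnatal day 6) and P56 (postnatal day 56). The level is TPM, a count of transcripts scaled to the same total in every library, that is the share that a gene's transcripts take of all transcripts in a library after correction for transcript length. A gene entered when its ratio of mean TPM, P6 over P56, lay above 0.769 and below 1.3 and its mean TPM over the 6 libraries was at least 10. The genes were thus selected on the measured TPM of the same 6 libraries, so the closeness of the ages in TPM is the rule itself and not a finding, and the ratios are given as descriptions without a test. Of the 312 genes, 232 reached the TPM minimum, and 111 of these lay in the window. The rule left out 16 genes by name, of which 14 were in the window, and 97 remained, here called the held genes. Among the 135 other genes at the minimum, 43 had a ratio at or over the upper edge and 78 at or under the lower edge, and 14 were those left out by name. The table lists 80 further genes under the minimum, 24 of them with a ratio in the window. The authors titled the deposited list DEGs, their term for differently expressed genes, and gave their own ratio of the 2 ages with it. For differently expressed genes the study's methods name the tool DESeq2 with p under 0.05. Whether that cutoff alone made this list is not stated in the sources used here. Since the table holds genes that its authors listed and no others, a held gene is one of that list and not one of all mouse genes.

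Both ages were measured in 3 libraries each, and neither the labels nor the study's methods name a treatment of these animals. The methods give wild-type C57BL/6 mice of both sexes, an inbred laboratory strain, and name the sequenced material as depots of inguinal adipose tissue (iAT), the fat pad of the groin, whereas by the sample labels the cells are adipose tissue macrophages, phagocytes resident in fat. The sex of each sample is given in neither source. The held genes cannot tell the materials apart, because no gene of the 13 macrophage markers or the 8 adipocyte markers is among the 312, and of 52 cell type markers checked only *Acta2*, *Tagln*, *Mcam*, *Acta1* and *Neb* are listed, none of them a held gene. In bulk RNA, fewer cells of a type and less RNA per cell cannot be told apart. Nothing in the labels says that the 3 libraries of an age come from separate animals, so the spread between them may be technical.

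As background, several of the most abundant held genes belong to the machinery by which cells pull on their surroundings. Actin filaments are moved by non-muscle myosin, cross-linked by filamins, and tied through talin and vinculin to integrins, the receptors that grip the extracellular matrix. Cyr61 and Ctgf are secreted matrix proteins of the CCN family and are well known as early transcripts of cells that are stretched, spread or stimulated with serum, with transcription driven in part by serum response factor and by TEAD factors with their partners YAP and TAZ. Others of the held genes serve tasks that nearly every cell has, such as the proteasome, translation initiation and chromatin remodelling. In fat, the matrix surrounds adipocytes and blood vessels and is remodelled as the depot grows after birth.

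The promoters of the 3 most abundant held genes, *Cyr61*, *Myl6* and *Hspg2*, are printed because these genes lead every list of levels given here and carry different elements ahead of their starts. The windows are RefSeq sequence of the GRCm38.p6 build, 250 bases before to 50 bases after the annotated start, written along the gene's own strand. The *Cyr61* window, listed by RefSeq as *Ccn1*, is chr3:145649936-145650235 on the minus strand. *Myl6* has 2 annotated starts on the minus strand, with windows chr10:128492960-128493259 and chr10:128493837-128494136, and the *Hspg2* window is chr4:137468553-137468852 on the plus strand. Capitals mark matches to the motifs searched on both strands, which were TATAAA (the TATA box), the CArG box (the element that serum response factor binds), GGAATG (the element that TEAD factors bind) and GGGCGG (the GC box of Sp factors).
Cyr61: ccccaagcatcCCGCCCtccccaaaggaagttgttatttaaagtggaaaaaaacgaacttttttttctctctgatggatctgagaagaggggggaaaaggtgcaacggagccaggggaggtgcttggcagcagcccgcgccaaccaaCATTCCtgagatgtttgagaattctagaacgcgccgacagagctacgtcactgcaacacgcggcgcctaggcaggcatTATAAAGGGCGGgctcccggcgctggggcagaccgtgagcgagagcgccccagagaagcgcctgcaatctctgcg
Myl6, the first window: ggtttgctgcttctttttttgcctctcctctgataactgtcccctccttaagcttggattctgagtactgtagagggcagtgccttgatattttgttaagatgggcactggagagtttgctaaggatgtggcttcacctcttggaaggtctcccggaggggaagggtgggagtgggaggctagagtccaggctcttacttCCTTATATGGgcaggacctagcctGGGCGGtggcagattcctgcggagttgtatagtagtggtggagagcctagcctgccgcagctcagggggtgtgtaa
Myl6, the second window: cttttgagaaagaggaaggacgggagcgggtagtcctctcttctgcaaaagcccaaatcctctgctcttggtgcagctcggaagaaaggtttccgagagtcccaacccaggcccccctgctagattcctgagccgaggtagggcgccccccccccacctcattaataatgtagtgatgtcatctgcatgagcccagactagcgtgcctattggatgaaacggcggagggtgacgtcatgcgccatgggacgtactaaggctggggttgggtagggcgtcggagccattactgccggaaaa
Hspg2: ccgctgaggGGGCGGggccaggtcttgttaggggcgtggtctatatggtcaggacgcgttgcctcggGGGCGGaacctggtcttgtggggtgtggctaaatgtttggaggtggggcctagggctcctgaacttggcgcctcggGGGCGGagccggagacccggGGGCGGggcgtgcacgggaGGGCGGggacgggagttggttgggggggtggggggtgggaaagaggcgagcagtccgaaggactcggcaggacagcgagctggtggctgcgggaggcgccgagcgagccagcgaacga
The *Cyr61* window held TATAAA 25 bases ahead of the start, with the GC box next to it and at -239, and GGAATG at -103. The first *Myl6* window held a CArG box at -50 and a GC box at -26, and the second held none of the 4 motifs. The *Hspg2* window had no TATAAA and held 5 GC boxes between -241 and -68. A match is a description of letters and not a shown binding site.

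Across the held genes, 78 of 97 matched a RefSeq promoter, in 107 windows. GGGCGG was present in 64.5% of these windows, in 70.2% of those of the other listed genes at the TPM minimum, in 46.2% of those of all coding genes and in 35.7% of all promoters. TATAAA was found in 13.1% of the windows of held genes, 12.2% of those of the other listed genes and 13.6% of all promoters, and GGAATG in 14.02%, 19.8% and 14.7%. The CArG box was in 4 windows, 3.74%, against 3.05% of those of the other listed genes and 1.63% of all promoters. Those 4 windows belong to *Myl6*, *Fhl1*, *Vcl* and *Ranbp2*, of which the first 3 are known to act in the actin cytoskeleton. The median window of the held genes had a GC content of 62.0% and 20 CpG pairs, against 63.7% and 22 in the other listed genes, 56.3% and 13 in all coding genes and 52.7% and 7 over all promoters.

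The libraries differed in depth and in 1 case stood apart. The depth of each whole library relative to the mean of the 6, recovered by dividing counts by FPKM (fragments per kilobase, scaled by the library total) over 196 genes, was between 1.09 and 1.16 at P6 and between 0.795 and 0.937 at P56. The held genes together took between 0.748% and 0.859% of a library's TPM. P56 replicate 3 was the lowest of its age in 87 of the 97 genes, with a median deviation from its age's mean of -0.16 on the log2 scale of TPM, and the other listed genes at the minimum had -0.18 in the same library. Pairs of P6 libraries differed by a chi-square per held gene of 5.56 to 6.35, where counting error alone gives about 1, and the pair of P56 replicates 1 and 2 differed by 6.46. The pairs with P56 replicate 3 reached 27.9 and 13.3. The number of genes inside the window, the median ratio and the ratios of several genes are therefore also given without it.

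**Figure D1:**
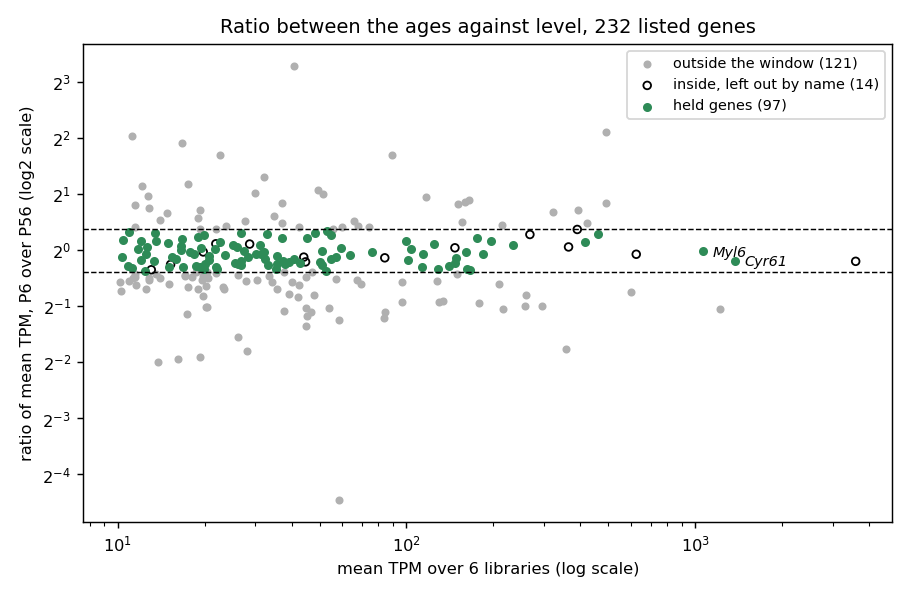
Each point is 1 of the 232 listed genes at or over 10 TPM on average, with the mean TPM over 6 libraries on a log x axis and the ratio of mean TPM, P6 over P56, on a log2 y axis; the dashed lines are the edges of the window. The 97 held genes (green) run from a mean of 10.4 to 1376 TPM, 14 genes in the window were left out by name (open circles), and 121 lie outside it (grey).

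The levels of the held genes spanned a wide range. Their mean TPM ran from 10.4 to 1376 with a median of 31.2, and 21 of them had at least 100 TPM and 32 at least 50 TPM. *Cyr61* was the most abundant, with 1314, 1276 and 1278 TPM at P6 and 1580.3, 1481 and 1327 TPM at P56. Every P6 value lay under every P56 value, and the ratio of means was 0.881. *Myl6*, the essential light chain of smooth and non-muscle myosin, followed with 1075, 1005 and 1092 TPM at P6 and 1007, 1024 and 1178 TPM at P56. Here the ages overlapped, the highest value was that of P56 replicate 3, and the ratio was 0.988. *Hspg2* encodes perlecan, the large heparan sulfate proteoglycan of basement membranes, and had 518, 523 and 481 TPM at P6 and 486, 433 and 324 TPM at P56. Its highest P56 library reached above the lowest P6 library, and P56 replicate 3 was far under the other 5. *Klf6*, a zinc finger transcription factor, had 435, 446 and 428 TPM at P6 and 418, 412 and 352 TPM at P56, with all P6 values above all P56 values and a ratio of 1.11.

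**Figure D2:**
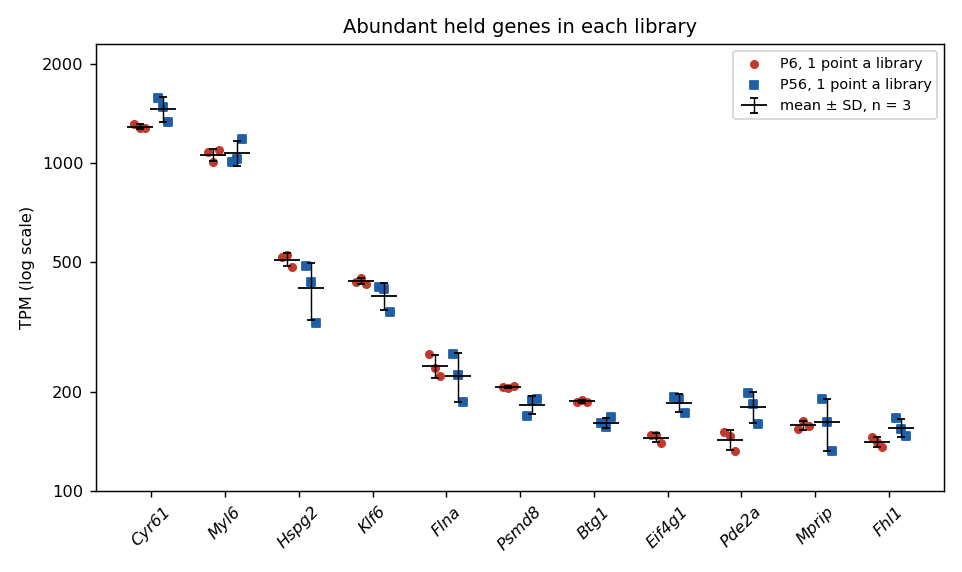
TPM (log scale) of 11 of the 12 held genes with the highest mean, 1 point a library (P6 red circles, P56 blue squares, replicates 1 to 3 from left to right), with the mean ± SD of 3 libraries in black. The points of an age lie close together for some genes (206 to 209 TPM for *Psmd8* at P6) and apart for others (133 to 191 TPM for *Mprip* at P56), and the third P56 point is the lowest for *Hspg2* (324 TPM), *Klf6* (352 TPM) and *Flna* (187 TPM) but the highest for *Myl6* (1178 TPM).

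The 6 secreted and matrix proteins held the most abundant gene and both ends of the window. The smaller CCN member *Ctgf* had 57.2, 49.03 and 49.1 TPM at P6 and 60.99, 61.6 and 50.6 TPM at P56, a ratio of 0.897, and its ages overlapped. *Ltbp1*, which binds latent TGF-beta in the matrix, had 54.1, 54.96 and 55.9 TPM at P6 and 68.1, 63.7 and 46.4 TPM at P56. The P6 values lay close together and inside the P56 range, which P56 replicate 3 opened on the low side. *Bmp2*, a secreted bone morphogenetic protein, had the highest ratio of all held genes, 1.27, with 57.7, 60.1 and 60.1 TPM at P6 and 52.6, 48.5 and 39.2 TPM at P56. *Glipr1* had the lowest, 0.773, with 9.69, 10.5 and 12.4 TPM at P6 and 14.4, 15.1 and 12.7 TPM at P56. Between these, the perlecan gene had a ratio of 1.22, so that 4 of the 6 lay under 1 in TPM, and 3 of the 6 in FPKM.

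The 22 genes of the actin cytoskeleton and adhesion were the most numerous group, with mean TPM from 14.9 to 1064 and a median ratio of 0.978. The group also counts *Kif5b* and *Map1b*, which belong to microtubules. In 15 of the 22 the ages overlapped, against 65 of all 97 held genes and 82 of the 232 listed genes at the TPM minimum. *Flna* and *Flnc* encode filamins, proteins that cross-link actin into networks, and their levels differed. *Flna* had a mean of 241 ± 19.1 TPM at P6 and 225 ± 37.9 TPM at P56, and *Flnc* 31.8 ± 0.272 and 32.6 ± 9.17 TPM (mean ± SD, n = 3). Their ratios were 1.07 and 0.977. At P56 both had their lowest value in replicate 3, and *Flnc* had 40.4, 34.9 and 22.5 TPM there against 31.5, 32.02 and 31.9 TPM at P6. *Tln1*, talin, the link between integrins and actin, had 145, 129.8 and 132 TPM at P6 and 167, 169 and 141 TPM at P56. Its partner vinculin, *Vcl*, had 107, 108 and 99.2 TPM at P6 and 113, 104 and 92.8 TPM at P56 with a ratio of 1.01, 1 of the 5 nearest to 1. Both genes overlap an exon of another coding gene on the other strand, *Creb3* for *Tln1* and *Ap3m1* for *Vcl*, and the sources used here do not say whether counting used strand.

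Around these, the regulators of myosin and the membrane skeleton showed the width of the window. *Mprip*, which recruits myosin phosphatase to actin, had 155, 164 and 158 TPM at P6 and 191, 162 and 133 TPM at P56, so its P6 libraries lay inside the P56 range. *Iqgap1*, a scaffold of the cell cortex, had the same arrangement with 115, 113 and 108 TPM at P6 and 133, 120.2 and 96.5 TPM at P56. *Fhl1*, a LIM domain protein, had 146, 142 and 137 TPM at P6 and 167, 155 and 147 TPM at P56, all P6 values under all P56 values by a narrow margin. *Tpm2*, a tropomyosin that lies along actin filaments, and *Utrn*, utrophin, which ties actin to the membrane complex of dystrophin, were lower at P6 in every library, with ratios of 0.797 and 0.775. *Kif5b*, a kinesin that carries cargo along microtubules, had a ratio of 0.7902 with 32.6, 30.9 and 30.1 TPM at P6 and 40.3, 40.4 and 37.8 TPM at P56. On the other side of 1, the adhesion scaffold *Nedd9* had 58.1, 53.4 and 49.2 TPM at P6 and 44.9, 45.3 and 39 TPM at P56, a ratio of 1.24. The unconventional myosin *Myo1d* and the focal adhesion protein *Tns3* were likewise higher at P6 in every library, with ratios of 1.22 and 1.21.

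Of the 2 integrin subunits, *Itga1*, part of a collagen receptor, had a mean of 30.7 ± 3.19 TPM at P6 and 34.2 ± 3.63 TPM at P56, and *Itgav*, part of the vitronectin receptors, 17.03 ± 1.02 and 16.2 ± 2.85 TPM. Both overlapped between the ages, and *Itga1* shares exon bases with *Gm49395* on the same strand. The filopodial myosin *Myo10*, the microtubule protein *Map1b*, the actin-associated proteins *Luzp1* and *Lpp* and the adhesion gene *Bcar3* overlapped too. Their ratios lay between 0.813 for *Map1b* and 1.098 for *Lpp*. *Bcar3* was 1 of the few genes with P56 replicate 3 as the highest of its age, at 28.3 TPM against 22.6 and 21.95 TPM.

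The 21 receptors and signalling genes had a median ratio of 0.993, and 14 overlapped between the ages, against 65 of all 97 held genes. *Rgs4*, which shortens G protein signals, was close in all libraries with 51.3, 50.9 and 49.99 TPM at P6 and 54.2, 50.4 and 48.6 TPM at P56. *Ddr1*, a collagen receptor with tyrosine kinase activity, was as even at a lower level, with 18.2, 17.3 and 17.6 TPM at P6 and 18.4, 17.9 and 17.6 TPM at P56. *Tnfrsf12a*, the receptor of the cytokine TWEAK, had 99.1, 102 and 104 TPM at P6 and 122, 132 and 121 TPM at P56, with all P6 values lower. *Sdc2*, the cell surface proteoglycan syndecan-2, had 60.7, 63.4 and 61.5 TPM at P6 inside a P56 range of 55.7 to 73.1 TPM. Among receptors of similar level, the ephrin receptor *Epha2* had a ratio of 1.07, neogenin *Neo1* 1.17 and polycystin *Pkd1* 0.843, and each overlapped. The Wnt receptor *Fzd7* did not overlap, with 14.3, 15.9 and 14.5 TPM at P6 and 11.95, 12.6 and 11.4 TPM at P56 and a ratio of 1.24. *Lrig1*, which restrains growth factor receptors, lay on the other side with 18.4, 17.8 and 18.9 TPM at P6 and 21.6, 22.3 and 21.3 TPM at P56.

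Genes of cyclic nucleotide signalling lay on both sides of 1. *Pde2a*, which breaks down cyclic AMP and cyclic GMP, was the most abundant signalling gene, with 151, 147 and 133 TPM at P6 and 199, 184 and 160.2 TPM at P56 and a ratio of 0.793. *Pde1b*, a calcium-dependent phosphodiesterase, had a mean of 11.9 ± 1.25 TPM at P6 and 11.6 ± 1.33 TPM at P56. *Pkia*, an inhibitor of protein kinase A, was higher at P6 in every library, with 13.2, 11.1 and 12.5 TPM against 10.3, 10.6 and 8.25 TPM at P56. Of the phosphatases, *Ptpn11* (SHP2) had 34.7, 35.4 and 34.6 TPM at P6 and 42.1, 43.7 and 37.5 TPM at P56, all P6 values lower, and *Ptpn14* overlapped with a ratio of 1.03. The kinases *Mast4*, *Hipk2* and *Nuak1* overlapped, with ratios of 0.993, 1.02 and 1.15, and *Arhgef17*, a guanine nucleotide exchange factor of small GTPases, did not, with a ratio of 1.25.

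The 14 genes of transcription and chromatin had the highest median ratio of the groups, 1.04, with 9 over 1 and 5 under. *Btg1*, an antiproliferative protein, had 186, 189 and 188 TPM at P6 and 161, 156 and 168 TPM at P56, a gap wider than either age's range. *Cic*, the repressor capicua, had 112, 105 and 101 TPM at P6 and 100.3, 95.7 and 86.5 TPM at P56, and its lowest P6 library was barely above its highest P56 library. *Hdac5*, a class II histone deacetylase, overlapped with means of 60.3 ± 3.72 TPM and 58.3 ± 3.15 TPM. The chromodomain remodelers *Chd1* and *Chd2* also overlapped, with ratios of 1.12 and 1.04, and the histone methyltransferase *Nsd1* had 0.798. *Lbh* was lower at P6 in every library, with a ratio of 0.8704. Some genes of low level scattered widely between libraries. The polycomb gene *Phc3* had 19.1, 21.4 and 11.6 TPM at P6 and 25.4, 22.2 and 16.3 TPM at P56. *Ino80d*, of the INO80 remodeler, had 11.6, 13.3 and 9.14 TPM at P6 and 16.4, 13.1 and 8.96 TPM at P56. In *Zfp469* the 3 P6 libraries were close, with 11, 11.7 and 10.7 TPM, and the P56 libraries had 12.1, 10.7 and 6.56 TPM. *Zbed6* had the ratio nearest to 1 of all held genes, 1.002, with 16.3, 18.2 and 15.1 TPM at P6 and 20.8, 18.02 and 10.8 TPM at P56. Its equal means came from a P56 range that opened on both sides of P6, and it overlaps exons of *Zc3h11a* on the same strand, so reads of these 2 genes may be shared.

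Protein folding and turnover gave 10 held genes. *Psmd8*, a subunit of the lid of the proteasome, had 207, 206 and 209 TPM at P6 and 169.8, 189 and 191 TPM at P56, and every P6 value was higher. *Dnajb4*, a co-chaperone of HSP70, and *Alg10b*, which adds glucose to the precursor of N-glycans, were arranged alike, with ratios of 1.21 and 1.19. The large ubiquitin ligase *Hectd4* lay under 1, with a ratio of 0.808, as did the deubiquitinase *Usp34* with 0.923 and *Anapc1*, of the anaphase-promoting complex, with 0.878. *Uggt1*, which checks the folding of glycoproteins, had a mean of 24.4 ± 1.69 TPM at P6 and 29.2 ± 3.99 TPM at P56. *Msrb3*, which reduces oxidised methionine, had 38.7, 35.1 and 35.3 TPM at P6 and 42.7, 42.6 and 40.8 TPM at P56. *Trim47*, a RING finger ubiquitin ligase, was the second most abundant of the 10 and overlapped, with 124, 134 and 131 TPM at P6 and 137, 111 and 110.3 TPM at P56.

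Of the 9 genes of membrane and nuclear transport, 8 had a ratio under 1 in TPM and 4 in FPKM. In TPM 7 of the 9 overlapped, against 65 of all 97 held genes. *Esyt1*, which tethers the endoplasmic reticulum to the plasma membrane, was lower at P6 in every library, with 129, 121 and 132 TPM against 153, 157 and 151 TPM at P56. The nuclear pore genes *Ranbp2* and *Ahctf1* and the import receptor *Tnpo2* had ratios of 0.941, 0.874 and 0.934. *Ahctf1* had nearly the same value in the 3 P6 libraries, 12.4, 12.5 and 12.4 TPM, and 16.3, 14.8 and 11.5 TPM at P56. The cation channel *Trpv2* was the only gene of the 9 over 1 in TPM, with a ratio of 1.11 and overlapping ages.

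All 7 genes of RNA metabolism and translation had a ratio under 1 in TPM. *Eif4g1*, the scaffold of the cap-binding complex, had 148, 148 and 141 TPM at P6 and 194, 191 and 173 TPM at P56, all P6 values lower. *Ddx6*, a helicase of mRNA decay and P-bodies, had 50.3, 47.4 and 41.4 TPM at P6 and 62.3, 63.3 and 41.7 TPM at P56, so that the low value of P56 replicate 3 alone made the ages overlap. The microRNA pathway genes *Dicer1*, which cuts microRNA precursors, and *Ago2*, which holds the mature microRNA, overlapped, with means of 9.93 ± 0.779 and 10.8 ± 1.46 TPM and of 19.5 ± 1.91 and 21.96 ± 5.31 TPM. *Smg5*, of nonsense-mediated decay, and *Rbbp6*, of 3' end processing, were lower at P6 in every library with ratios of 0.852 and 0.846, and *Larp4b* overlapped at 0.958. On the FPKM scale 6 of the 7 lay under 1.

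The 8 genes of other or less certain role had ratios from 0.799 to 1.17. *Pdk4*, which shuts off pyruvate dehydrogenase, had 26.7, 32.5 and 29.1 TPM at P6 and 22.04, 32.1 and 37.9 TPM at P56, with a P56 range that reached beyond the P6 range on both sides. *Mustn1*, a small nuclear protein of the musculoskeletal system, had 109, 85.3 and 92.2 TPM at P6 and 108, 112 and 102 TPM at P56. *Nomo1* was lower at P6 in every library with a ratio of 0.856 and was the only one of the 8 whose ages did not overlap.

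**Figure D3:**
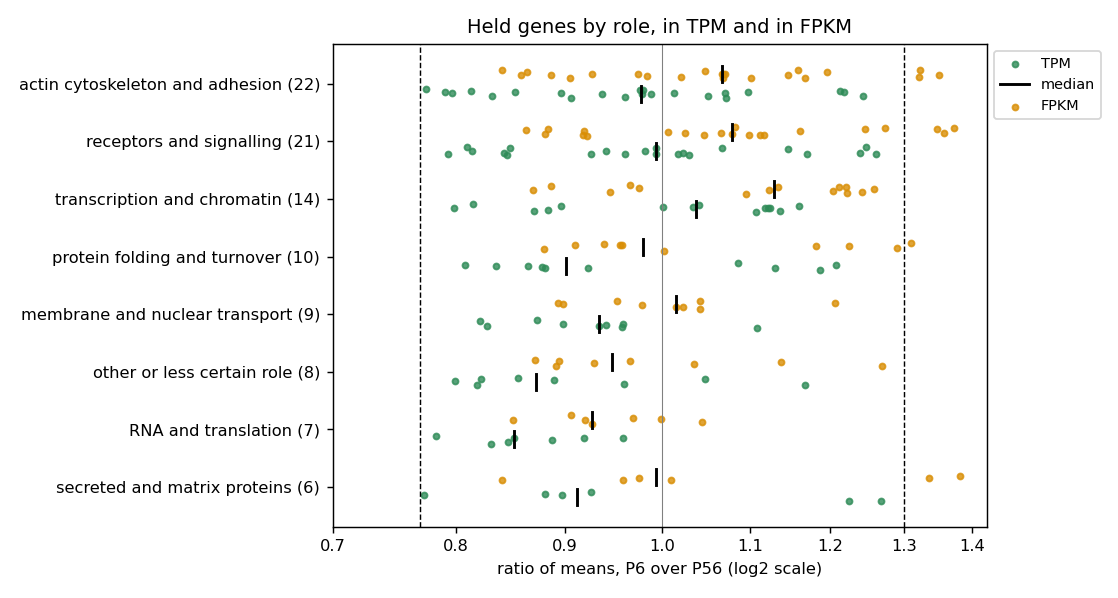
Ratio of means, P6 over P56, on a log2 x axis for the 97 held genes in 8 groups by role (number of genes in parentheses), in TPM (green) and in FPKM (orange), with the group median as a black bar and the edges of the window as dashed lines. In every group the FPKM median lies to the right of the TPM median, for example 1.07 against 0.978 for the actin cytoskeleton and adhesion, and 9 genes lie beyond the upper edge in FPKM.

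The unit in which the genes were chosen moved the whole set. The median ratio was 0.941 in TPM, with 62 genes under 1 and 35 over, and 1.03 in FPKM, with 42 under and 55 over. TPM divided by FPKM was 2.05, 2.03 and 1.99 at P6 and 2.27, 2.24 and 2.10 at P56, a shift of -0.12 on the log2 scale between the ages that applies to every gene alike. A ratio under 1 in TPM can thus be over 1 in FPKM, and a direction for a held gene within that distance of 1 depends on the scale. In FPKM, 88 of the 97 stayed in the window, and the 9 that left all passed the upper edge with ratios of 1.31 to 1.38: *Bmp2*, *Pkia*, *Arhgef17*, *Nedd9*, *Fzd7*, *Hspg2*, *Myo1d*, *Tns3* and *Dnajb4*. Another 18 listed genes entered. When each gene's counts were divided by the recovered depth, the median ratio was also 1.03, and 87 of the 97 stayed in the window.

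Without P56 replicate 3, the library that stood apart, 83 of the 97 genes kept a TPM ratio inside the window, and the median ratio was 0.880 in place of 0.941. The 14 that left all went under the lower edge: *Eif4g1*, *Pde2a*, *Utrn*, *Ddx6*, *Pkd1*, *Nsd1*, *Map1b*, *Heatr5a*, *Phc3*, *Tulp4*, *Fryl*, *Glipr1*, *Ino80d* and *Hectd4*. Among genes that stayed, the ratio of *Flna* went from 1.07 to 0.988 and that of *Zfp469* from 1.14 to 0.976, each across 1. It went from 1.22 to 1.104 for *Hspg2*, from 0.977 to 0.845 for *Flnc* and from 1.002 to 0.854 for *Zbed6*, which was then no longer near 1. For *Ddx6* the ratio went from 0.831 to 0.738, and for *Nsd1* from 0.798 to 0.727. With any other single library left out, between 93 and 96 of the 97 stayed. A core of 66 genes stayed in the window with each library left out in turn, in FPKM, at the recovered depth, with size factors from medians of ratios, with medians in place of means and with the median ratio of all listed genes set to 1. *Cyr61*, *Myl6*, *Klf6*, *Flna*, *Psmd8*, *Mprip* and *Fhl1* were in it, and with equal library sizes for the counts 28 genes remained.

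The genes nearest the limits of the rule show how narrow the choice was. Just inside the upper edge stood *Bmp2* at 1.27, *Pkia* at 1.26 and *Arhgef17* at 1.25, and just outside it *Tead1* at 1.302, *Avpr1a* at 1.303 and *Sulf1* at 1.308. At the lower edge *Glipr1* at 0.773, *Utrn* at 0.775 and *Eif4g1* at 0.783 were inside and *Hip1* at 0.767, *Huwe1* at 0.766 and *Ralgapa1* at 0.766 outside. At the TPM minimum, *Dicer1* with a mean of 10.4 TPM, *Zfp469* with 10.5 TPM and *Erc1* with 10.9 TPM entered, while *Cep170b* with 9.74 TPM, *Cers6* with 8.75 TPM and *Cmtm4* with 8.59 TPM had a ratio in the window and did not. The ratios nearest to 1 were those of *Zbed6* at 1.002, *Mast4* at 0.993, *Rgs4* at 0.993, *Myl6* at 0.988 and *Vcl* at 1.013.

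The rule did not use the spread between the libraries of an age. As the coefficient of variation of TPM over 3 libraries (CV), its median over the held genes was 6.46% at P6 and 11.5% at P56, and over the 135 other listed genes at the minimum 6.13% and 12.9%. The CV was larger at P56 in 74 of the 97 held genes, and in 110 of the 135 others. Averaged over both ages, the median CV of the held genes was 8.97%. Without P56 replicate 3 it was 5.70%, where the P56 part came from P56 replicates 1 and 2 only, so the values rest on unlike numbers of libraries. In FPKM it was 7.25%. A small spread was not shared by all: 36 held genes had a CV under 10% at both ages and 7 had one under 5%. The smallest mean CV over both ages was that of *Btg1* at 2.16%, followed by *Ddr1* at 2.37%, *Lrig1* at 2.70%, *Esyt1* at 3.13% and *Dnajb4* at 3.17%. The largest were those of *Phc3* at 25.5%, *Ino80d* at 23.7%, *Zbed6* at 20.3%, *Pdk4* at 18.1% and *Zfp469* at 17.1%. *Btg1* and *Dnajb4* thus had a small spread and no overlap between the ages, while *Zbed6* had the ratio nearest to 1 and a large spread.

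**Figure D4:**
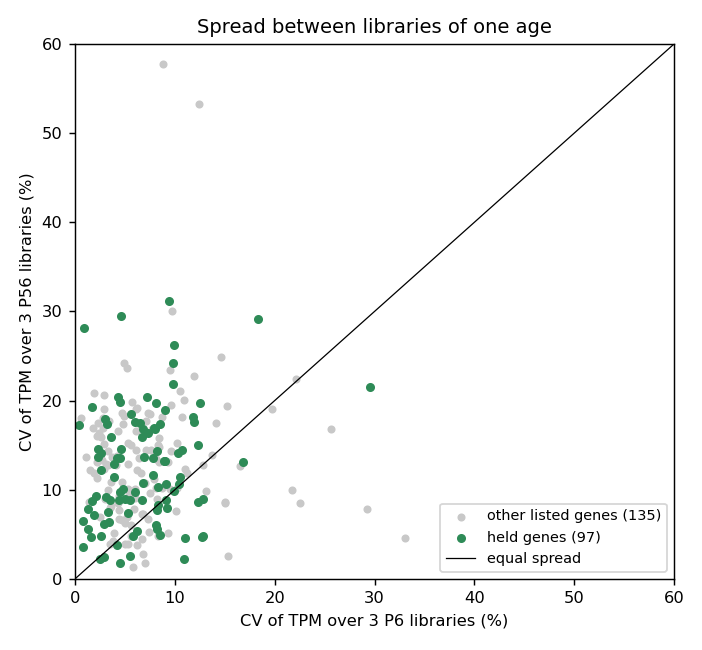
Coefficient of variation (CV, in %) of TPM over the 3 P6 libraries (x axis) against that over the 3 P56 libraries (y axis), for the 97 held genes (green) and the 135 other listed genes at that minimum (grey), with the line of equal spread. Of the held genes, 74 lie above the line, with medians of 6.46% at P6 and 11.5% at P56, and *Zbed6* (31.2% at P56) and *Phc3* (29.5% at P6) reach the highest values.

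In TPM the ages overlapped in 65 of the 97 held genes, all P6 values were higher in 13 and lower in 19. Of the 232 listed genes at the minimum, 64.7% did not overlap in TPM. In FPKM the ages overlapped in 61 of the 97, and all P6 values were higher in 25 and lower in 11. Over the 232 genes, 79 overlapped in FPKM, 70 were higher and 83 lower. *Cyr61*, *Fhl1*, *Lbh*, *Nomo1* and *Rbbp6* were lower at P6 in TPM and overlapped in FPKM. *Rgs4*, *Ddr1*, *Vcl*, *Hdac5* and *Hspg2* overlapped in TPM and were higher at P6 in FPKM. By edgeR's quasi-likelihood test on rounded counts at the recovered depth (Benjamini-Hochberg adjusted p under 0.05), 26 of the 97 were called, 20 higher and 6 lower at P6, where 64.2% of the 310 listed genes tested were called. By limma on log2(TPM + 1), 13 were called, 5 higher and 8 lower, where 60.3% of 300 were. The edgeR count was 16 without P6 replicate 1, 41 without P56 replicate 3, and 55, all higher at P6, with equal library sizes. Since the same contrast chose the genes, these counts follow from the choice and nothing is read from them.

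The same fit gives the precision of each gene's ratio at the recovered depth, which is not the TPM ratio that the window was set on. The median ratio was 1.03 at that depth and 0.941 in TPM, so the intervals sit higher against the window. For some genes the ratio at that depth itself lay outside the window, *Bmp2* (1.38) and *Phc3* (0.701) among them. The 95% interval of the edgeR ratio lay inside the window of 1.3-fold for 47 of the 97 genes, crossed the upper edge for 35 and the lower edge for 15. Intervals reached a median of 16.2% to each side, from 11.4% for *Cyr61* to 32.2% for *Pdk4*. The interval covered 1 for 69 genes. For *Myl6* the ratio at the recovered depth was 1.07 with an interval of 0.914 to 1.24, for *Cyr61* 0.958 with 0.860 to 1.07 and for *Rgs4* 1.08 with 0.953 to 1.22. For *Zbed6*, whose mean TPM was nearly equal at both ages, the interval was 0.837 to 1.43 and crossed the upper edge. On log2(TPM + 1) with limma, 32 intervals lay inside, 20 of them of genes that were inside in both fits. An interval inside the window is a statement on precision and, since the ratio chose the gene, no test that the ages are equal.

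**Figure D5:**
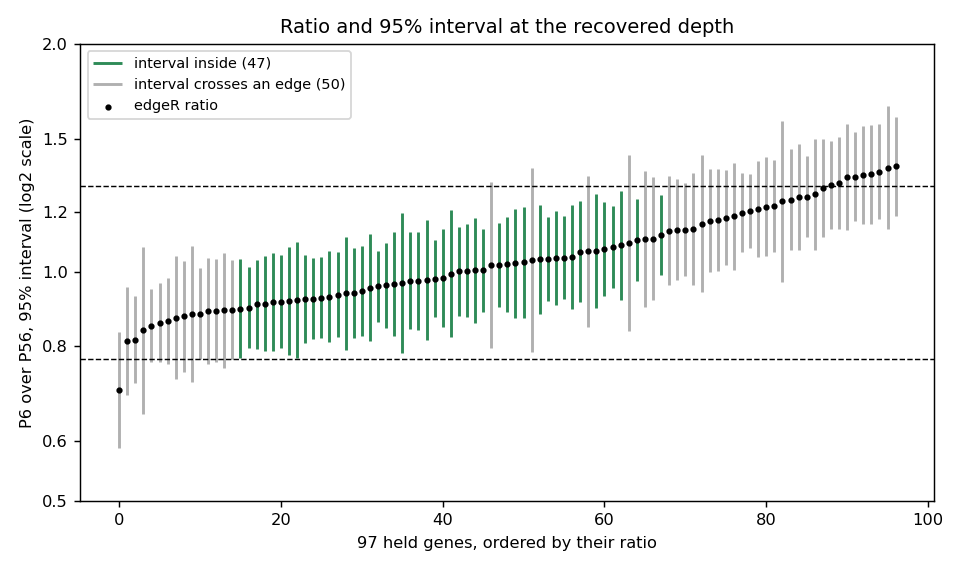
Ratio P6 over P56 (black points) with its 95% interval from edgeR at the recovered depth (vertical lines, log2 y axis) for the 97 held genes, ordered by the ratio along the x axis; the dashed lines are the edges of the window. The interval lies inside for 47 genes (green) and crosses an edge for 50 (grey), 35 of them at the upper edge.

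The held genes were long, and so were the listed genes at large. By the GENCODE annotation of GRCm38, 96 of the 97 matched, on 19 chromosomes, and the longest coding transcript of a held gene had 6483 bases at the median and 19 exons. The other listed genes at the TPM minimum had 5614 bases and 14.5 exons, and all coding genes 2683 bases and 7 exons. A transcript of at least 10000 bases was found in 19 held genes, 19.8%, in 19.4% of the others and in 1.95% of all coding genes. The lengths ran from 984 bases for *Tnfrsf12a* to 15482 bases for *Hectd4*, and *Hspg2* had the most exons, 97. GC content was close to that of the rest, with a median of 50.8% in both sets.

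Length moved with the low library. Over the 32 held genes with the shortest transcripts, P56 replicate 3 differed from the mean of P56 replicates 1 and 2 by a median of -0.14 on the log2 scale of TPM. Over the 32 in the middle it differed by -0.22 and over the 32 longest by -0.38. P6 replicate 3 had -0.02, -0.14 and -0.18 against its own age in the same order. The median TPM ratio of these 3 sets was 0.950, 0.981 and 0.898, so the ratio itself did not follow the order of lengths. The part of length in the ratios was not tested.

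The effective length behind a gene's values, read from count over FPKM, was nearly the same at both ages for most held genes. It differed by less than 1% for 75 of the 97. The difference was at least 5% for 5, *Phc3*, *Hivep3*, *Myo10*, *Tpm2* and *Hipk2*, all shorter at P6. Among the 232 listed genes at the TPM minimum, 9 differed by at least 5%, and 4 of these had no overlap between the ages. In *Phc3* the effective length was 0.786, 0.767 and 1.15 of the gene's mean at P6 and 1.08, 1.02 and 1.197 at P56. The count ratio of *Phc3* at the recovered depth was 0.701 where the FPKM ratio was 0.887. Some differences under 5% came without overlap between the ages, as in *Cic* and *Ltbp1*. Of the 5 held genes at or over 5%, only *Myo10* and *Tpm2* had lengths that did not overlap. In *Myo10* they were 0.971, 0.956 and 0.950 at P6 and 1.06, 1.04 and 1.02 at P56, and the count ratio at the recovered depth was 0.939 where the FPKM ratio, on the same depth and corrected for length, was 1.02. Such a length is an estimate of which transcripts of a gene the reads came from. In 15 held genes an exon overlaps one of another coding gene, and 7 genes, *Myl6* among them, had estimated counts that were not whole, so reads were divided between features. The lowest count of a held gene in any library was 73.

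Lists of genes by function, drawn up with these results known, place the held genes among the other listed genes. Of 16 listed cytoskeletal and motor genes at the TPM minimum, 11 were held genes. Of the rest, 1 lay over the upper edge (*Myh10*) and 4 under the lower (*Myo1c*, *Macf1*, *Kifc3* and *Ehbp1l1*). The held genes *Myl6*, *Mprip*, *Fhl1* and *Tpm2* were not on that list, so 11 of 16 does not measure how often such genes were held. Of 11 genes of the extracellular matrix and adhesion, 4 were held genes. In that list 5 lay over (*Col16a1*, *Nid2*, *Tnc*, *Thbs1* and *Fat1*) and 2 under (*Lamb2* and *Prelp*), and the held genes *Cyr61* and *Ctgf* were not on it. Of 10 genes of ubiquitin and the proteasome, 4 were held genes, none lay over and 6 under, *Huwe1*, *Herc1*, *Herc2*, *Birc6*, *Cbl* and *Usp24*. Among the 4 are *Hectd4*, *Usp34* and *Uggt1*, of which the last acts in the folding of glycoproteins, and *Psmd8*, *Anapc1* and *Trim47* were not on that list. Of 8 chromatin modifiers, 4 were held genes, 1 lay over (*Dot1l*) and 3 under (*Kmt2a*, *Kmt2d* and *Ash1l*). Both listed genes of translation, *Eif4g1* and *Larp4b*, were held genes. None of the 5 genes of the list of kinases and growth signalling at the TPM minimum was one, but the kinases *Mast4*, *Hipk2*, *Nuak1*, *Ddr1* and *Epha2*, all held genes, were not on that list. Over all 232 genes the held genes were 97, with 43 over and 78 under. Of 24 genes in common use as references for quantitative PCR, 1 is among the 312 (*Tfrc*, under the TPM minimum), and it was not a held gene.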

How the data were processed

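RNA from mice at P6 and P56 was sequenced in 3 libraries per age, 6 in all. According to the study's methods the authors used a BGISEQ-500 platform, and the labels describe poly(A) selection. The submitters' processing notes name HISAT, Bowtie2, RSEM and DESeq2. The sources used here give neither tool versions nor the genome build. One table was deposited, with 312 genes. It gives estimated counts that the authors deposited unnormalized. The TPM that the authors deposited are corrected for length and have the same sum across libraries, and the FPKM that the authors deposited are corrected for length and library total. The last columns that the authors deposited hold their log2 ratio of the ages with its p-value and q-value, and these were not used. Samples were grouped by the age in the labels.

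The held genes were taken from TPM by the rule stated in the report. The rule, the groups by role and the lists by function were chosen with earlier results of these data known. Named genes were the 12 with the highest mean TPM, the 5 with a ratio nearest 1, the 3 on either side of each edge and of the TPM minimum, the 5 with the smallest and the 5 with the largest spread, and members of the lists by function. Other held genes were named by role after their values were seen. Some held genes are not reported here by name and are counted only.

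Library sizes for the counts were set to the depth recovered as the median of count over FPKM over the 196 genes that exceeded an FPKM of 5 in all libraries. Rounded counts were fitted with edgeR 4.0.16 (R 4.3.3, functions glmQLFit, glmQLFTest, no TMM, no covariates, Benjamini-Hochberg adjustment) for the 310 genes that averaged 10 counts or more, after the fit was tested on simulated data. limma 3.58.1 was run on log2(TPM + 1) where the mean TPM was 1 or more, and DESeq2 1.42.0 was an alternative. Replicate numbers are shared between the ages in the labels. The other alternatives were FPKM, equal library sizes, median-of-ratios size factors, other windows and TPM minimums, no filter, the replicate number as a block and each library left out. The ratio with the median of all listed genes set to 1 was chosen after seeing the data. Depth sets the precision of a value, and the lowest count of a held gene in any library was 73. Roles are background knowledge. Transcript lengths and overlaps came from GENCODE M21 on GRCm38, matched by Entrez ID.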

Additional observations from a re-analysis of the deposited data

How the results depend on the processing

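The number of genes inside the window was 97 and stayed between 95 and 143 under all settings but the narrower window (69 genes) and a minimum of 50 TPM (32 genes). The genes differed more than the number: 46 of the 97 were inside with equal library sizes, which leave the difference in depth in the ratios, 84 with the median ratio of all listed genes set to 1, and 86 to 92 with FPKM, the recovered depth, median-of-ratios size factors or medians. Of the 26 held genes called, 20 were higher at P6 and 6 lower, where 64.2% of the 310 listed genes tested were called. With equal library sizes 55 were called, all higher, and with median-of-ratios size factors 29 higher and 5 lower. With limma on log2(TPM + 1) 13 were called, 5 higher and 8 lower, where 60.3% of 300 listed genes were called. DESeq2 called 26, 20 higher and 6 lower. Leaving out 1 library gave 16 to 41, with 16 without P6 replicate 1 and 41 (24 higher, 17 lower) without P56 replicate 3. Apart from the main fit and limma, the share of all listed genes called is not given here for these settings. Nothing about the held genes is read from these counts. The number with the interval inside the window was 47, and 1 with equal library sizes. Leaving out 1 library gave 33 to 55. The median CV over both ages was 8.97%, and 5.70% to 10.96% with 1 library left out, lowest without P56 replicate 3 and highest without P56 replicate 2. A CV with a library left out rests on fewer libraries of that age. Of 605 recomputed ratios of 55 named held genes, 113 moved by more than 1 SD between replicates, 54 of them with equal library sizes.

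Deviations of same-numbered libraries correlated by 0.0967, 0.131 and 0.239. Of the differently numbered pairs, P56 replicate 1 with P6 replicate 2 had 0.0969, and the rest lay between -0.206 and -0.00923. The labels do not say whether same-numbered libraries belong together, and a shared batch was not tested. With a replicate block 213 of the 310 genes were called in place of 199, 30 held genes in place of 26, and 56 intervals lay inside in place of 47. The table holds part of each library, so no total count stands for depth, and changes of the whole RNA content per cell cannot be seen in any of the units.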
